A study of Mus musculus with 16 samples.

Results

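Trp53, Cdkn2a, Cdkn2b, Smad4, Myc, Cdkn1a, Mdm2, Bax and Ccng1 are 9 genes of the growth-control circuits that pancreatic cancer alters, taken by name from the 54532 genes of the deposited tables. Their mRNA was measured by RNA sequencing in KPC1199 cells, a mouse pancreatic cancer line, that had been grown orthotopically in the pancreas and sorted from the tumours. The groups were sorted WT cells, sorted cells with Ly6d overexpression, sorted cells of high Ly6d expression and sorted cells of low Ly6d expression, with 2 libraries each. Ly6d encodes a lipid-anchored surface protein, and the study asked how it affects the start and growth of these tumours. All 4 groups derive from a single line. Sources used here do not give its driver alleles, the construct behind the overexpression, the host animals or the marker used for sorting. The overexpression libraries carry a column name that appears in the labels of overexpression tumours, and were placed in their group by it. The labelled tumour tissue samples (4 WT and 4 overexpression) were not analysed here. Nothing in the labels says that the libraries of a group came from separate animals, so p-values measure only the spread between these libraries.

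KPC tumours carry a mutated Trp53 that Cre recombinase switches on in the pancreas. The p53 protein made from Trp53 is a transcription factor stabilised by DNA damage and oncogenic stress. It activates Cdkn1a, which encodes the kinase inhibitor p21 and stops the cell cycle, Bax, which permeabilises mitochondria in apoptosis, and Ccng1, a cyclin without a role as a classical cell cycle driver. It also activates Mdm2, whose product marks p53 for degradation and closes a feedback loop. Cdkn2a gives rise to p16Ink4a, which inhibits the kinases that inactivate the retinoblastoma protein, and from another first exon to p19Arf, which blocks Mdm2. Its neighbour Cdkn2b encodes the related inhibitor p15Ink4b, and Smad4 encodes the shared partner of the receptor-regulated SMAD proteins of TGF-beta and BMP signalling. Myc encodes a transcription factor of growth and ribosome production that many tumours keep high. A missense mutation leaves Trp53 mRNA in place, and counts per gene cannot tell its alleles apart, nor the transcripts of Cdkn2a.

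The promoters of the 4 p53 target genes are shown because each holds a match to the half-site consensus that p53 binds. RefSeq windows of GRCm38.p6, from 250 bases before to 50 after an annotated start, were searched for 7 of the 9 genes, in 9 windows. Smad4 was left out of the search, and Myc had no window. The p53 half-site consensus, which reads the same on both strands, was found in 5 windows of 5 genes, Trp53 itself among them. No match was found in either Cdkn2a window, in the Cdkn2b window or in the downstream Cdkn1a window. Of all 32851 windows of this length, 8.36% hold it. Capitals mark the half-sites, and they begin at -73 and -51 from the start in Cdkn1a, -186 in Mdm2, -201 in Bax and -185 in Ccng1. Such a match is a description of letters, not of binding. The windows are chr17:29090729-29091028 (+ strand), chr10:117710709-117711008 (- strand), chr7:45466849-45467148 (- strand) and chr11:40755237-40755536 (- strand), each printed from 5′ to 3′.
Cdkn1a: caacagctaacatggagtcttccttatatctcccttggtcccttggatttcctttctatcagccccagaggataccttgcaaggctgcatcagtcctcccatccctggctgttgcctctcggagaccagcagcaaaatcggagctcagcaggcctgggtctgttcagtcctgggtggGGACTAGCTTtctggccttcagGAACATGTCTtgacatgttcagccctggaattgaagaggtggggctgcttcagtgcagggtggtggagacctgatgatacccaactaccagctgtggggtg
Mdm2: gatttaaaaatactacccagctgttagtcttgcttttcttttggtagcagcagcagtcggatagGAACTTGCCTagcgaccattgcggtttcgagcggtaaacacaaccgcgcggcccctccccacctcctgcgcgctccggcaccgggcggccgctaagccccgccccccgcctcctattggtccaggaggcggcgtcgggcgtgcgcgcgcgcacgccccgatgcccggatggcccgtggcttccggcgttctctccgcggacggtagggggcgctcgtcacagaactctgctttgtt
Bax: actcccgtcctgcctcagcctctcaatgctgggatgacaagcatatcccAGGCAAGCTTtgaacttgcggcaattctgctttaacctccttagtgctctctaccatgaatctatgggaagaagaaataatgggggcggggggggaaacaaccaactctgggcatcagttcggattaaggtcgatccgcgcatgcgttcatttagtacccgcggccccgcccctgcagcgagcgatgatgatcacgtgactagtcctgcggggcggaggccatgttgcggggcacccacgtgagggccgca
Ccng1: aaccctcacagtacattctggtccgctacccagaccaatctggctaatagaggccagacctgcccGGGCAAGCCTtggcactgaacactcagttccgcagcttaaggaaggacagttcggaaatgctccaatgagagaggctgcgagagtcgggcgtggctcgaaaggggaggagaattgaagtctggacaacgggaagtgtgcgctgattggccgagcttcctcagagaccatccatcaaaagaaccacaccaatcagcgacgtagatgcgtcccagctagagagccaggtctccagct

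The genes lie at these positions in GRCm38, as given in the tables, and all are protein-coding. Trp53 is at chr11:69580359-69591873 on the + strand, and Ccng1 at chr11:40748552-40755311 on the - strand. Cdkn2a, at chr4:89274471-89294653, and Cdkn2b, at chr4:89306299-89311039, are neighbours on the - strand. Mdm2 is at chr10:117688875-117710758 (- strand), Bax at chr7:45461697-45466898 (- strand) and Cdkn1a at chr17:29090976-29100727 (+ strand). Myc is at chr15:61985391-61990374 (+ strand) and Smad4 at chr18:73639009-73703780 (- strand). Cdkn2a has annotated transcripts that start at 89282192 and 89294653. Among genes of the tables, Cdkn1a overlaps AC167363.2 on the opposite strand. AC167363.2 was at 16 and 21 counts in WT cells, 55 and 56 counts in overexpression cells and 5 to 7 recovered reads in the others. Bax overlaps Gm45808, at 0 in all 8 libraries. Sources used here give no strand setting for the counting.

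Library totals ranged from 15449241 to 18290325 counts for WT and overexpression and from 15063975 to 20509539 reads, recovered from TPM, for Ly6d-high and Ly6d-low. CPM are counts scaled to the library total, and TPM are scaled by gene length as well. Ly6d was at 1260 and 1066 CPM in WT and 3380 and 3423 CPM in overexpression cells. It was at 1.56 and 0.352 TPM in Ly6d-low and 697 and 504 TPM in Ly6d-high cells. In CPM of recovered reads, Ly6d was at 0.465 and 0.104 in Ly6d-low and 203 and 136 in Ly6d-high cells, so that Ly6d-high lay below WT. These sets of libraries were normalized separately, and no test was made between them. All 8 epithelial markers examined were detected in every library. Their summed level was 12390 to 13890 CPM in the WT and overexpression libraries, 28390 to 30870 CPM in Ly6d-high and 44410 to 44460 CPM in Ly6d-low. Markers of other cell types differed between the groups. The 17 acinar markers summed to 22380 and 22880 CPM in WT and 1707 and 1872 CPM in overexpression cells, and 16 of the 16 tested fell. They summed to 3636 and 3603 CPM in Ly6d-low and 7761 and 6566 CPM in Ly6d-high cells, where 11 of 16 tested rose. At most 1 of the 17 was at 0 in any library. The 8 B and plasma cell markers summed to 28.0 and 31.2 CPM in WT, 334 and 353 CPM in overexpression, 1.29 and 2.26 CPM in Ly6d-low and 364 and 446 CPM in Ly6d-high cells. Most of that sum was Igkc, at 21.6 to 23.1 CPM in WT, 246 to 263 CPM in overexpression, 0.259 to 0.332 CPM in Ly6d-low and 298 to 366 CPM in Ly6d-high, while Ms4a1 was at 0 in 6 of the 8 libraries. The 9 neutrophil markers summed to 54.0 and 55.2 CPM in WT and 172 and 184 CPM in overexpression cells, where S100a9 went from 0.647 to 0.773 CPM to 33.8 to 38.8 CPM. In Ly6d-low they summed to 83.1 and 84.6 CPM and in Ly6d-high to 211 and 243 CPM, nearly all of it Ltf, with S100a9 under 1 CPM and Camp at 0 in all 4 libraries. The 9 macrophage markers were at 150.1 to 159 CPM in WT, 318 to 328 CPM in overexpression, 183 to 184 CPM in Ly6d-low and 511 to 515 CPM in Ly6d-high, most of the last being Cd14, at 393 and 397 CPM. The 10 islet markers summed to 1416 and 1255 CPM in WT and 609.6 and 660.2 CPM in overexpression cells, with 9 of 10 lower, and to 409 and 386 CPM in Ly6d-low and 207 and 178 CPM in Ly6d-high cells, with 4 of 9 tested lower. The 8 endothelial markers summed to 537 and 519 CPM in WT and 388 and 404 CPM in overexpression cells, with 5 of 8 lower, and 0 of 7 tested passed between Ly6d-low (178 and 191 CPM) and Ly6d-high (201 and 238 CPM). Fibroblast markers summed to 5283 to 5867 CPM in WT, 6236 to 6265 CPM in overexpression, 1480 to 1498 CPM in Ly6d-low and 1625 to 1768 CPM in Ly6d-high cells. T and NK cell markers summed to at most 7.17 CPM and erythroid markers to at most 66.5 CPM in any library. Their part in the results that follow was not tested.

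On the RPKM scale, which divides CPM by gene length in kilobases and so allows genes to be compared, Cdkn2a mRNA was the most abundant of the 9 in WT cells, at 400.3 ± 45.7 RPKM (SD, n = 2). Cdkn2b followed at 72.3 ± 0.534 RPKM and Myc at 44.0 ± 0.827 RPKM. Trp53 (29.4 ± 1.79 RPKM), Cdkn1a (28.4 ± 1.57 RPKM) and Bax (28.0 ± 1.86 RPKM) had overlapping levels, as had Smad4 (21.5 ± 1.52 RPKM) and Ccng1 (21.3 ± 1.56 RPKM). Mdm2, the ligase gene of the feedback loop, was lowest at 9.80 ± 0.485 RPKM. The order in overexpression cells was the same but for Cdkn1a, which at 33.3 ± 1.36 RPKM stood above Trp53 at 29.2 ± 2.69 RPKM without overlap. All 9 genes passed the filters on low values in both tables.

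The first comparison asked what Ly6d overexpression changed in sorted tumour cells. Of the 9 genes, 0 passed the threshold of an adjusted p under 0.05, where 4.16% of the 15771 genes tested did, 2.32% higher and 1.84% lower (edgeR quasi-likelihood test, 2 against 2 libraries). DESeq2 also called 0. At an unadjusted p under 0.05 there were 4, Cdkn2a, Cdkn2b, Cdkn1a and Myc, against 17.3% of all genes. Groups did not overlap for 3 genes that were higher and 2 that were lower with overexpression, where 26.3% of all tested genes had higher groups without overlap, 21.7% lower and 48% either. The median log2 fold change of the 9 was -0.02, beside -0.0012 for all genes.

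Among the inhibitors of the INK4 locus, Cdkn2a was at 507 and 431 CPM in WT cells and 531 and 598 CPM in overexpression cells. Both overexpression libraries lay above both WT libraries, with a log2 fold change of 0.25 ± 0.08 (SE) and an adjusted p of 0.143. Its 95% interval ran from 1.05-fold to 1.35-fold. Without WT replicate 1, the higher of the WT libraries, the log2 fold change was 0.35 and the adjusted p 9.19e-05, and without a filter on low counts the adjusted p was 0.015. Without WT replicate 2 the log2 fold change was 0.15 (adjusted p = 0.417), and without overexpression replicate 2 it was 0.16 (adjusted p = 0.425). Cdkn2b was at 101 and 100 CPM in WT and at 109 and 129.7 CPM in overexpression cells. The groups did not overlap, and the overexpression libraries differed from each other by more than the nearer one differed from WT. The log2 fold change was 0.23 ± 0.09 (SE, adjusted p = 0.221). Without overexpression replicate 1 it was 0.35 with an adjusted p of 0.0225, and without overexpression replicate 2 it was 0.094 with an adjusted p of 0.631.

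Trp53 was at 124 and 114 CPM in WT and 126 and 111 CPM in overexpression cells. The groups overlapped fully, and the log2 fold change was -0.02 ± 0.08 (SE, adjusted p = 0.924). The 95% interval ran from 0.866-fold to 1.12-fold. Mdm2, the p53 ligase gene and p53 target, was at 51.6 and 48.1 CPM in WT and 45.9 and 45.2 CPM in overexpression cells. Both overexpression libraries were lower, by less than the test could tell from the spread (log2 fold change -0.15 ± 0.10, adjusted p = 0.507).

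The targets that carry out p53 functions did not move together. Cdkn1a, the p21 gene, was at 105 and 96.8 CPM in WT and 122 and 115 CPM in overexpression cells. Both overexpression libraries were above both WT libraries, with a log2 fold change of 0.21 ± 0.08 (SE, adjusted p = 0.176) and an interval from 1.03-fold to 1.30-fold. The pro-apoptotic Bax was at 42.1 and 46.2 CPM in WT and 37.6 and 43.6 CPM in overexpression cells, which overlapped (-0.14 ± 0.12, adjusted p = 0.622). Ccng1 was at 71.1 and 78.8 CPM in WT and 73.0 and 75.4 CPM in overexpression cells, so that both overexpression values lay inside the WT range (-0.03 ± 0.09, adjusted p = 0.907). The 4 targets thus had 1 log2 fold change above 0 and 3 below, and 0 of them passed the threshold.

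Smad4 was at 75.7 and 83.6 CPM in WT and 79.1 and 87.5 CPM in overexpression cells. The groups overlapped (0.05 ± 0.10, adjusted p = 0.857). Myc was at 121 and 118 CPM in WT and 103 and 104 CPM in overexpression cells. The libraries of each group lay close together and the groups did not overlap, with a log2 fold change of -0.23 ± 0.07 (SE, adjusted p = 0.127) and an interval from 0.765-fold to 0.956-fold.

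**Figure D1:**
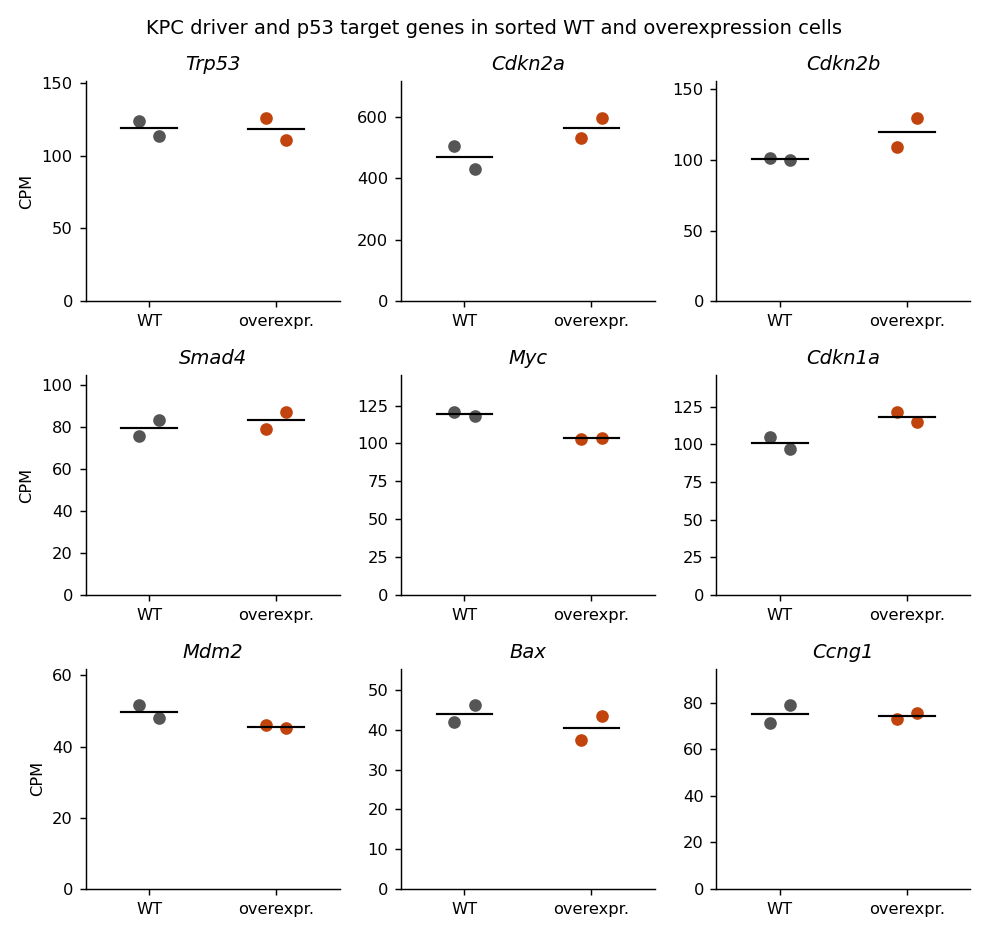
Level of each gene in CPM (counts scaled to library total) in the 2 WT and 2 overexpression libraries; points are libraries, bars are group means, and every axis starts at 0. Cdkn2a, Cdkn2b and Cdkn1a lie higher and Myc and Mdm2 lower in both overexpression libraries, while Trp53, Smad4, Bax and Ccng1 overlap. Groups of 48% of all genes tested did not overlap, in either direction.

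The second comparison asked how cells of high Ly6d differ from cells of low Ly6d within these tumours. Of the 9 genes, 0 passed the threshold, where 9.81% of the 14625 genes tested did, 8.64% higher and 1.17% lower (limma on log2(TPM + 1), 2 against 2 libraries). edgeR and DESeq2 on recovered reads, and limma on TPM scaled by TMM library factors, also called 0 of the 9, where edgeR called 11.9% of all genes and the TMM-scaled fit 6.27%, 4.59% of all genes higher. At an unadjusted p under 0.05 there were 6, Trp53, Smad4, Myc, Cdkn1a, Mdm2 and Ccng1, against 30.8% of all genes. Both Ly6d-high libraries lay above both Ly6d-low libraries for 7 of the 9, and for 54.4% of all genes tested. The reverse held for 0 of the 9 and 10.4% of all genes, so that 64.8% of all genes did not overlap in either direction. TMM factors rescale libraries by the trimmed mean of their log ratios. The median of all genes was 0.25 on this scale and -0.0059 once TPM were scaled by TMM factors, and the median of the 9 was 0.39 and 0.11. Calls over all genes numbered 1264 higher and 171 lower, against 671 and 246 with TMM factors and 1224 and 591 with edgeR on recovered reads. In bulk RNA, fewer cells of a type and less RNA per cell cannot be told apart.

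Trp53 was at 117 and 130.4 TPM in Ly6d-low and at 152 and 198 TPM in Ly6d-high cells. The high libraries were above the low ones but far from each other, and the difference was 0.48 ± 0.16 (SE, log2(TPM + 1), adjusted p = 0.101). With TMM factors it was 0.19 ± 0.10 (adjusted p = 0.289). Mdm2 was at 13.4 and 14.8 TPM in Ly6d-low and 17.7 and 21.7 TPM in Ly6d-high cells, a difference of 0.45 ± 0.17 (adjusted p = 0.134), and 0.18 with TMM factors. Per length, Mdm2 stood at 0.1097 to 0.117 of the Trp53 level in all 4 of these libraries and at 0.2901 to 0.337 of it in the WT and overexpression libraries.

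Cdkn1a was at 108 and 118 TPM in Ly6d-low and 151 and 142 TPM in Ly6d-high cells. The libraries of each group lay close together and the groups did not overlap, with a difference of 0.37 ± 0.12 (SE, adjusted p = 0.106), and at 0.08 ± 0.13 with TMM factors. Ccng1 was at 44.5 and 47.2 TPM in Ly6d-low and 53.5 and 68.4 TPM in Ly6d-high cells (0.39 ± 0.16, adjusted p = 0.156), and 0.11 with TMM factors. Bax, in contrast, was at 131 and 110.4 TPM in Ly6d-low and 127.0 and 114 TPM in Ly6d-high cells. The Ly6d-high values of Bax lay inside the Ly6d-low range, and the difference was -0.00089 ± 0.14 (adjusted p = 0.997), with an interval from 0.793-fold to 1.26-fold. With TMM factors Bax was at -0.29.

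Cdkn2a was at 30.6 and 34.2 TPM in Ly6d-low and 31.3 and 24.0 TPM in Ly6d-high cells, where replicate 2 was the lowest of the 4. The groups overlapped, with a difference of -0.23 ± 0.18 (SE, adjusted p = 0.394), and -0.51 with TMM factors. Cdkn2b was at 459 and 486 TPM in Ly6d-low and 491 and 532 TPM in Ly6d-high cells, which did not overlap (0.11 ± 0.11, adjusted p = 0.486). In CPM of recovered reads Cdkn2b did overlap, at 256.2 and 267.3 in Ly6d-low and 266.8 and 267.7 in Ly6d-high cells. Its direction turned with TMM factors, at -0.18 ± 0.09 (adjusted p = 0.285), and with edgeR (-0.18) and DESeq2 (-0.20) on recovered reads. Smad4 was at 48.2 and 52.95 TPM in Ly6d-low and 58.6 and 83.6 TPM in Ly6d-high cells (0.46 ± 0.19, adjusted p = 0.154). Myc was at 111 and 123 TPM in Ly6d-low and 138 and 196 TPM in Ly6d-high cells, with a difference of 0.49 ± 0.18 (adjusted p = 0.126). With TMM factors Smad4 was at 0.18 and Myc at 0.20, so that 6 of the 9 differences lay above 0 and 3 below.

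Replicate 2 of the Ly6d-high cells was the highest of the 4 libraries for Trp53, Mdm2, Ccng1, Smad4, Myc and Cdkn2b. Its TMM factor was 1.12, against 0.919 to 1.04 in the other libraries. Without Ly6d-high replicate 1, Trp53 (adjusted p = 0.00277), Smad4 (0.00288), Myc (0.00225), Cdkn1a (0.0238), Mdm2 (0.00909) and Ccng1 (0.00454) were called higher and Cdkn2a (0.0227) lower. In that fit 6710 of 13627 genes passed the threshold, against 1435 of 14625 with all libraries. Without Ly6d-high replicate 2, the differences of Trp53 (0.29), Smad4 (0.21), Myc (0.24), Mdm2 (0.31) and Ccng1 (0.22) were smaller than with all libraries.

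**Figure D2:**
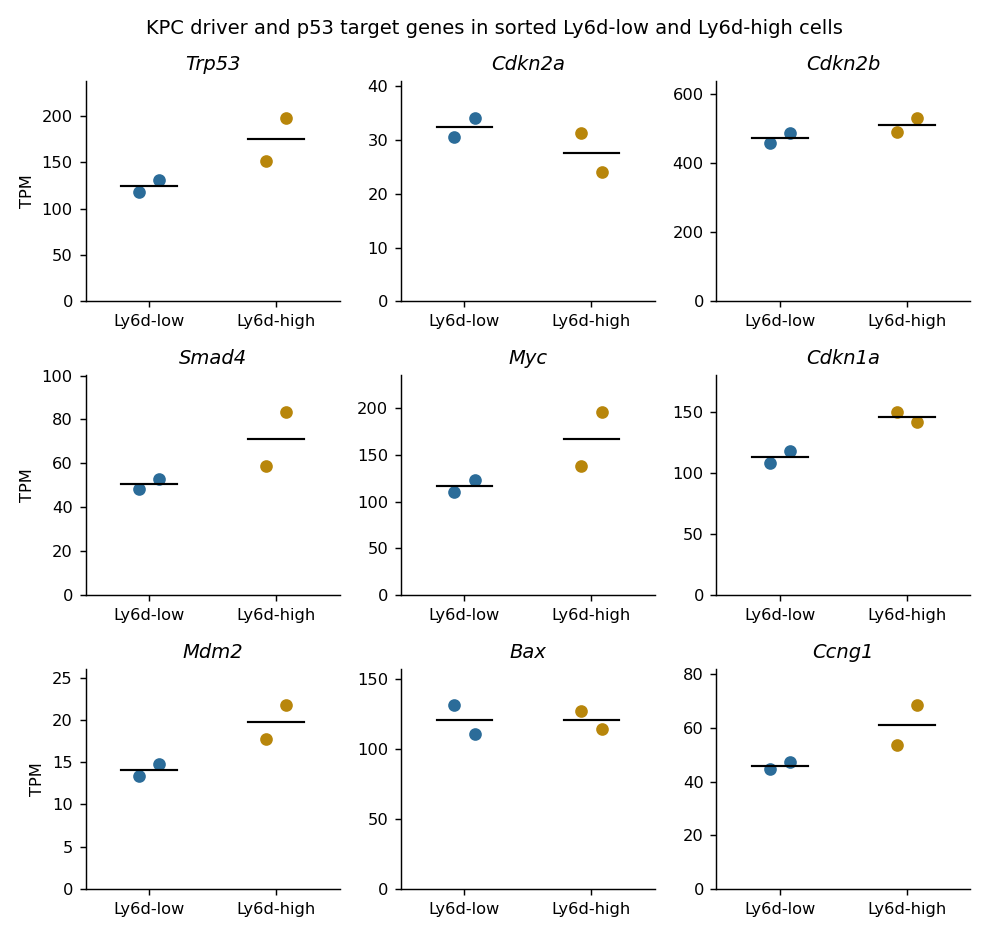
Level of each gene in TPM (transcripts scaled by length and library) in the 2 Ly6d-low and 2 Ly6d-high libraries; points are libraries, bars are group means, and every axis starts at 0. Both Ly6d-high libraries are above both Ly6d-low libraries in 7 panels, as for 54.4% of all genes tested, while Cdkn2a and Bax overlap.

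**Figure D3:**
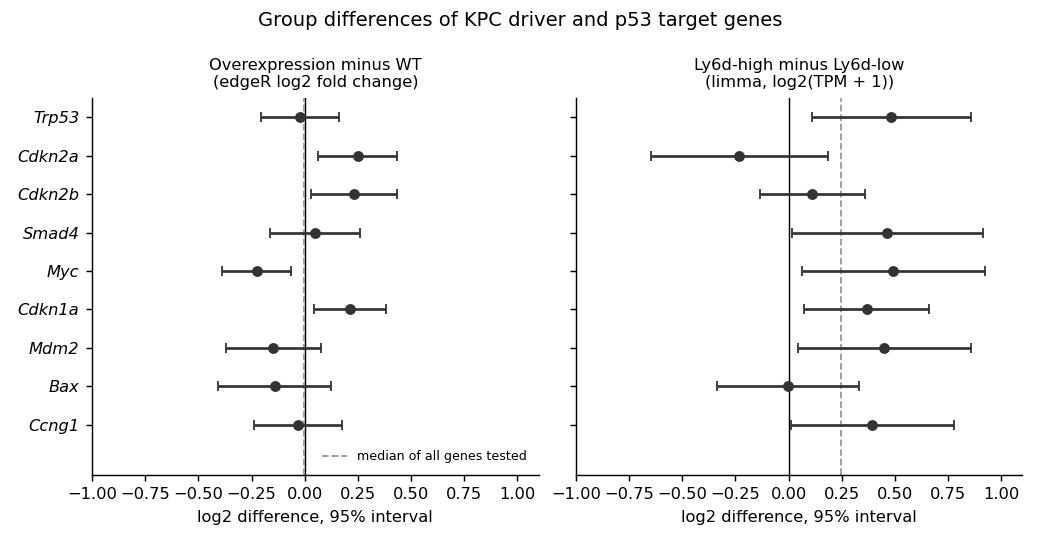
Log2 differences of the 9 genes with their 95% intervals, for overexpression minus WT (edgeR) and Ly6d-high minus Ly6d-low (limma on log2(TPM + 1)); the dashed line is the median of all genes tested, at -0.0012 and 0.25. Points lie between -0.23 and 0.25 in the overexpression panel and between -0.23 and 0.49 in the Ly6d-high minus Ly6d-low panel. Of the 9 genes, 0 passed the adjusted threshold in either.

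Other genes of the same circuits were read from lists, some with calls and some without. The lists were chosen with earlier results of these data known, so their shares are descriptions and do not test a list. Of 40 further p53 target genes, 39 were tested in the overexpression comparison, and 3 rose and 1 fell (7.69% and 2.56%, where 2.32% and 1.84% of all genes did). Gadd45a, a growth arrest gene induced by DNA damage, was at 55.9 and 50.7 CPM in WT and 87.7 and 83.4 CPM in overexpression cells (0.66 ± 0.09 SE, adjusted p = 0.00196). The antiproliferative gene Btg2 went from 244 and 225 CPM to 347 and 316 CPM (log2 fold change 0.48). Sesn2, a stress-induced inhibitor of mTORC1 signalling, went from 31.3 and 33.9 CPM to 51.4 and 50.2 CPM (0.62), and was not called without WT replicate 1 (adjusted p = 0.0505). Plk2, a polo-like kinase gene, went from 106 and 101 CPM to 80.9 and 72.3 CPM (-0.45). In each of these 4 genes, named because they passed the threshold, the groups did not overlap, as in 48% of all genes tested. The median of the list was -0.0085, beside -0.0012 for all genes. Of 18 tested regulators of p53, such as its activating kinases and Mdm4, 0 passed with edgeR or DESeq2, and 2 had an unadjusted p under 0.05 (17.3% of all genes did).

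Genes around Myc showed calls in both directions with overexpression. In the list of MYC and MAX network factors, 3 of 13 rose (23.1%, where 2.32% of all genes did). The 3 are antagonists that compete with Myc for MAX or its sites. Mxi1 went from 56.4 and 54.0 CPM to 77.6 and 81.4 CPM (0.51 ± 0.09, adjusted p = 0.00951), Mxd1 from 112 and 112 CPM to 155 and 141 CPM (0.38), and Mnt from 49.0 and 48.6 CPM to 70.8 and 66.7 CPM (0.48). For Mnt the adjusted p was 0.057 when WT replicate 1 was left out. In the list of MYC target genes, 4 of 17 fell (23.5%, where 1.84% of all genes did) and 0 rose, with a median of -0.23. They were the nucleolar genes Nop56 (158 and 144 CPM to 111 and 117 CPM, -0.43) and Nolc1 (123 and 121 CPM to 94.6 and 97.9 CPM, -0.36) and the polyamine enzyme genes Srm (56.8 and 55.02 CPM to 39.1 and 40.0 CPM, -0.52) and Odc1 (215 and 197 CPM to 166 and 163 CPM, -0.34). Without WT replicate 1 the calls of Srm (adjusted p = 0.058) and Odc1 (adjusted p = 0.0627) were lost.

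In the INK4, cyclin D and RB list, 1 of 22 rose and 1 fell with overexpression (4.55% each, where 2.32% of all genes rose and 1.84% fell). The p27 gene Cdkn1b went from 81.0 and 81.0 CPM to 109 and 103 CPM (0.38). Leaving out WT replicate 1 gave it an adjusted p of 0.0849, and leaving out WT replicate 2 one of 0.0509. The cyclin D1 gene Ccnd1 went from 385 and 366 CPM to 321 and 301 CPM (-0.29), with an adjusted p of 0.124 when overexpression replicate 2 was left out. Among SMADs, their receptors and feedback targets, 1 of 22 rose (4.55%, where 2.32% of all genes did). This was Id1, a BMP-responsive inhibitor of differentiation, at 97.0 and 80.9 CPM in WT and 119 and 117 CPM in overexpression cells (0.39), with an adjusted p of 0.273 without WT replicate 2. In the BCL2 family, 2 of 13 rose (15.4%, where 2.32% of all genes did), and both encode BH3-only activators of apoptosis. Bmf went from 53.2 and 52.0 CPM to 79.9 and 77.7 CPM (0.56, adjusted p = 0.00491) and Bcl2l11, the gene of Bim, from 43.4 and 44.1 CPM to 56.4 and 63.3 CPM (0.44). Bcl2l11 lost its call with DESeq2 (adjusted p = 0.0664), with marker genes left out (0.0517), and without WT replicate 1 (0.179), WT replicate 2 (0.102) or overexpression replicate 2 (0.0895).

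Of 16 proliferation genes, 1 fell with overexpression (6.25%, where 1.84% of all genes did). This was the replication helicase gene Mcm3, from 113 and 112 CPM to 88.5 and 93.3 CPM (-0.33). The call was lost with DESeq2 (adjusted p = 0.0514) and without WT replicate 1 (0.102), WT replicate 2 (0.128) or overexpression replicate 1 (0.0651). The list's median was -0.19, beside -0.0012 for all genes, and 15 of the 16 log2 fold changes were below 0. No test was made of the list as a whole. Of 14 other genes often altered in pancreatic cancer, 0 passed with edgeR or DESeq2, and 2 had an unadjusted p under 0.05 (17.3% of all genes did).

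In Ly6d-high against Ly6d-low cells, 4 of 37 tested p53 targets rose and 0 fell (10.8%, where 8.64% of all genes rose). With TMM factors 2 rose and 1 fell, and with edgeR on recovered reads 4 rose and 2 fell. Sulf2, an extracellular sulfatase gene, was at 0.761 and 1.11 TPM in Ly6d-low and 8.82 and 12.1 TPM in Ly6d-high cells, a difference of 2.55 ± 0.23 (SE, adjusted p = 0.00071). It rested on 27 and 50 recovered reads in Ly6d-low and 415 and 472 in Ly6d-high. Trp53inp1, which encodes a nuclear protein that acts with p53 in stress responses, was at 2.38 and 2.83 TPM in Ly6d-low and 10.5 and 12.7 TPM in Ly6d-high cells (1.80 ± 0.19, adjusted p = 0.00169). The BH3-only gene Bbc3, whose product is Puma, went from 9.12 and 9.30 TPM to 17.0 and 17.5 TPM (0.84), and the adenylate kinase gene Ak1 from 23.1 and 23.2 TPM to 37.0 and 41.8 TPM (0.74).

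Bbc3 and Ak1 lost their calls under several settings. Their adjusted p were 0.0641 and 0.0673 without a filter, 0.0537 and 0.0533 with TMM factors and 0.19 and 0.127 with DESeq2 on recovered reads. Without Ly6d-low replicate 1 they were 0.274 and 0.33, and without Ly6d-low replicate 2 they were 0.205 and 0.27. In the BCL2 family, 2 of 12 rose (16.7%, where 8.64% of all genes did), Bbc3 and Bik, another BH3-only gene. Bik was at 2.08 and 1.32 TPM in Ly6d-low and 17.6 and 12.7 TPM in Ly6d-high cells (2.58 ± 0.24, adjusted p = 0.000844).

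In the MYC target list, 2 of 17 fell in Ly6d-high cells (11.8%, where 1.17% of all genes did) and 0 rose. With TMM factors 4 fell. Ldha, a lactate dehydrogenase gene, was at 3830 and 3814 TPM in Ly6d-low and 2590.0 and 2564 TPM in Ly6d-high cells (-0.57 ± 0.08, adjusted p = 0.00466), and the nucleolar chaperone gene Npm1 at 489 and 465 TPM against 356 and 324.5 TPM (-0.49). Ldha lost its call without a filter (adjusted p = 0.112), Ly6d-low replicate 1 (0.0798) or Ly6d-low replicate 2 (0.0697). Npm1 lost its call without a filter (0.113), with TMM factors (0.0566), and without Ly6d-low replicate 1 (0.562) or replicate 2 (0.341). Of 13 other genes often altered in pancreatic cancer, 1 rose (7.69%, where 8.64% of all genes did). This was the chromatin remodeller gene Arid1a, from 3.69 and 4.41 TPM to 7.03 and 8.88 TPM (0.82). Its adjusted p was 0.154 without a filter, 0.0728 with TMM factors, 0.0574 without Ly6d-high replicate 2, 0.455 without Ly6d-low replicate 1 and 0.166 without Ly6d-low replicate 2.

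The remaining lists had 0 calls with limma, and their counts at an unadjusted p under 0.05 stand beside 30.8% of all genes. For p53 regulators this was 0 of 17, with 3 at an unadjusted p under 0.05 and 0 called by edgeR on recovered reads. For the INK4, cyclin D and RB list it was 0 of 22, with 4 at an unadjusted p under 0.05 and 1 called lower by edgeR. The SMAD list had 0 of 22, with 7 at an unadjusted p under 0.05 and 1 called lower by edgeR. The MYC and MAX network had 0 of 11, with 4 at such a p and 1 called higher by edgeR. The proliferation list had 0 of 16, with 3 at such a p and 2 called lower by edgeR.

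**Figure D4:**
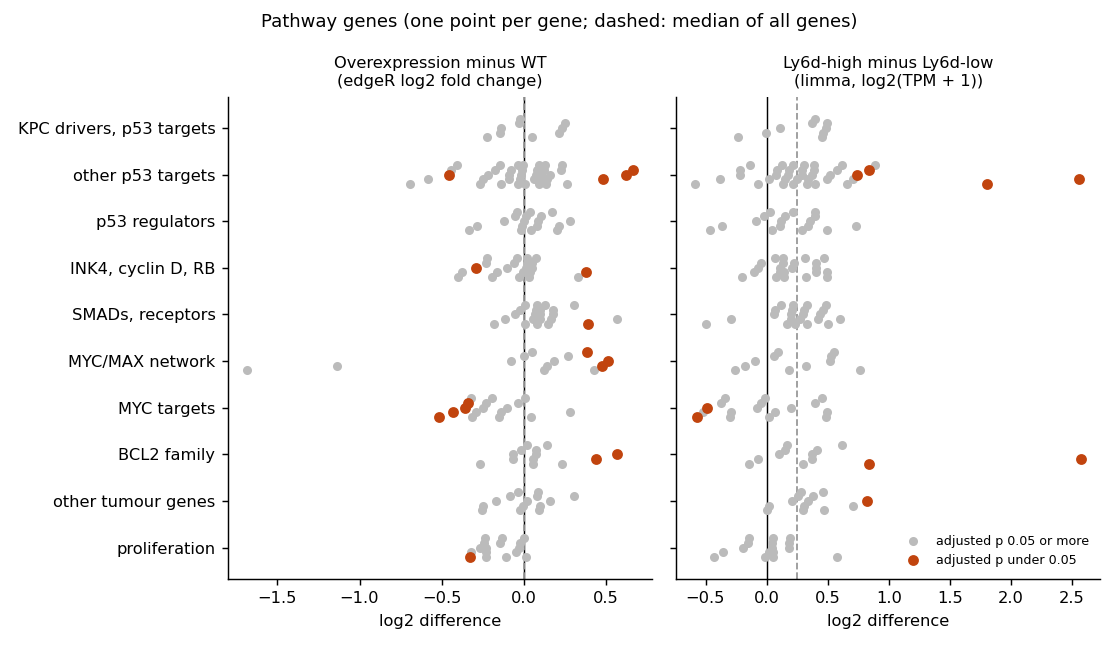
Log2 differences of the 9 genes and of 9 lists of pathway genes in each comparison, with a point for each tested gene, orange where the adjusted p was under 0.05; the dashed line is the median of all genes. The orange points on the right of the second panel are Sulf2 and Trp53inp1 among p53 targets and Bik in the BCL2 family, at 2.55, 1.80 and 2.58.

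Of the 9 genes, Cdkn2a differed most between the tables. It rested on 6663 to 10756 counts in WT and overexpression cells and on 187 to 306 recovered reads in Ly6d-high and Ly6d-low cells. Per length it was at 368 to 510 RPKM (WT 433 and 368, overexpression 453 and 509.8) in the former and at 8.69 to 13.5 RPKM in the latter, 37.8-fold apart in the means. Cdkn2b, its neighbour on chromosome 4, went the other way, from 71.9 to 93.3 RPKM in the former to 184 to 193 RPKM in the latter. The ratio of Cdkn2a to Cdkn2b within a library was 5.11 to 5.95 in the WT and overexpression libraries and 0.0451 to 0.0703 in the others. Mtap, at chr4:89137122-89181081 and named only after its values were seen, had 36.9 to 40.3 RPKM in the former and 64.5 to 70.9 RPKM in the latter. The tables were normalized separately and hold different sorts, so no test was made between them.

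The other genes of the set were closer between the tables. Trp53 had means of 29.3 and 57.4 RPKM, Cdkn1a 30.8 and 50.1 RPKM, Bax 26.9 and 46.8 RPKM, Myc 41.0 and 54.6 RPKM, Smad4 21.9 and 23.4 RPKM, Ccng1 21.2 and 20.6 RPKM, and Mdm2 9.38 and 6.51 RPKM, the WT and overexpression table first. Of 8570 genes with a mean of at least 5 RPKM in either table, 7 had a lower ratio of the Ly6d-sorted to the WT and overexpression libraries than Cdkn2a, which was at -5.12 on the log2(RPKM + 1) scale. The tables differed broadly, with a standard deviation of 1.27 and a median of -0.02 over these genes. Genes rich in G and C were lower in the Ly6d-sorted table, with a median of -0.65 at 60% GC or more and 0.22 below 45%. Cdkn2a has 60.2% GC in its longest annotated transcript, and among 687 genes within 2 percentage points of it the median was -0.71 and 2 were lower than Cdkn2a. Bax has 63.5% GC and was at 0.78. The part of base composition in the Cdkn2a difference was not tested.

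Within the Ly6d-sorted libraries, the order per length differed from that in WT cells. Cdkn2b led at 188 ± 5.64 RPKM in Ly6d-low and 192 ± 0.467 RPKM in Ly6d-high cells (SD, n = 2 each). In Ly6d-low cells Trp53 (49.3 ± 3.14 RPKM), Bax (48.1 ± 6.29 RPKM), and Myc (46.6 ± 3.05 RPKM) had overlapping levels. Cdkn1a (45.1 ± 2.46 RPKM) overlapped Bax and Myc, while both of its values lay below those of Trp53. Smad4 (20.1 ± 1.15 RPKM), Ccng1 (18.3 ± 0.561 RPKM), Cdkn2a (12.9 ± 0.864 RPKM) and Mdm2 (5.62 ± 0.335 RPKM) followed in that order without overlap. In Ly6d-high cells Trp53 (65.5 ± 8.73 RPKM) overlapped Myc (62.6 ± 12.1 RPKM), which overlapped Cdkn1a (55.2 ± 5.23 RPKM), and Bax was at 45.4 ± 5.96 RPKM. Smad4 (26.6 ± 5.20 RPKM) overlapped Ccng1 (22.8 ± 2.74 RPKM), while Cdkn2a at 10.5 ± 2.50 RPKM and Mdm2 at 7.39 ± 0.664 RPKM came last.

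**Figure D5:**
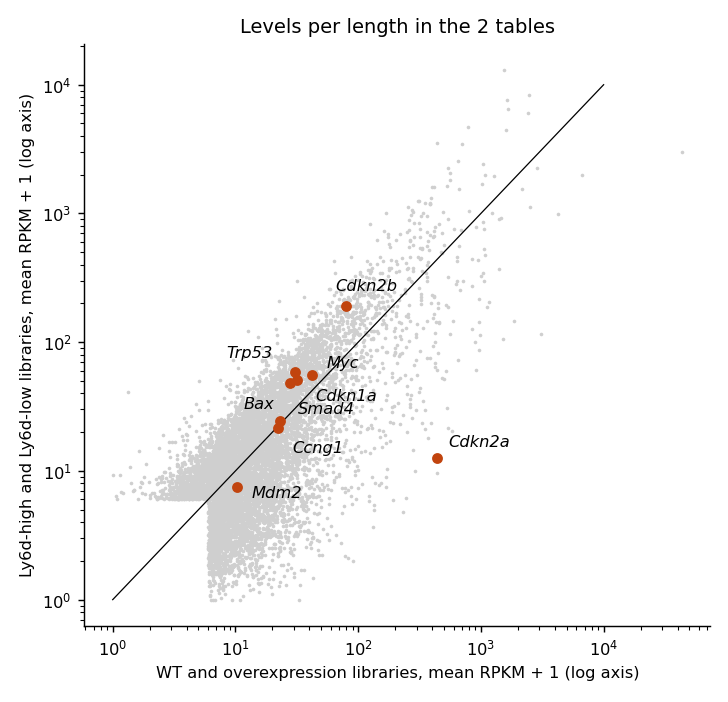
Mean RPKM + 1 of 8570 genes in the WT and overexpression libraries (horizontal) and in the Ly6d-sorted libraries (vertical), on log axes with the line of equal level; the 9 genes are marked. Cdkn2a lies far below the line, at 441 and 11.7 RPKM, and Cdkn2b above it, at 79.1 and 190.3 RPKM.

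Across the 8 libraries, with log2(CPM + 1) centred within each table, the 9 genes fell into patterns that are given here only as descriptions of libraries sharing scale and depth. Smad4 and Ccng1 were most alike (Pearson r = 0.969), followed by Myc and Mdm2 (0.957) and Trp53 and Mdm2 (0.928). Cdkn1a was at r = 0.552 with Trp53, and Bax at -0.669. Cdkn2a was at -0.829 with Myc and -0.654 with Trp53. Among 9791 named genes at 5 CPM or more in both tables, those most like Trp53 were Lman2l (0.993), Mindy4 (0.992) and Anks3 (0.992), and those most like Myc were Eva1c (0.997), Shmt2 (0.995) and Zgpat (0.994). Those most like Mdm2 were Ppm1g (0.997), Gpaa1 (0.992) and Adamts1 (0.988), like Smad4 Flywch1 (0.995), Usp40 (0.994) and Snx17 (0.993), and like Ccng1 Dxo (0.995), Nol6 (0.994) and Top3a (0.991). For Cdkn1a they were Phc1 (0.989), Chic2 (0.984) and Tmem234 (0.979), for Cdkn2a Fam162a (0.975), Nsa2 (0.97) and Dcps (0.969), for Cdkn2b Zmym5 (0.99), Dok1 (0.985) and Halr1 (0.959), and for Bax Gcat (0.959), Emc8 (0.911) and Ccdc85b (0.905).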

How the data were processed

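The 9 genes and the pathway and marker lists were chosen with earlier results of these data known. Per the submitters' processing notes, the authors' build was mm9 and their tools, given without version, included fastp, HISAT2, DESeq2 and featureCounts. Gene coordinates in the deposited tables are those of GRCm38: of 54409 genes found in GENCODE M21, 98.3% had the same start and end. The deposited count table holds raw counts per gene, per the file headers, and 2 further columns of per-sample counts that matched no label were not used. The deposited Ly6d-high and Ly6d-low table gives TPM values based on the listed gene lengths. TPM multiplied by length were whole multiples of a step per library (100% of values above 0 within 0.1 reads), and these recovered reads gave CPM and RPKM in that table. RPKM of both tables were computed here from counts or recovered reads, library totals and lengths. TPM were not computed for the WT and overexpression libraries, because in 1 WT library a 57-base RNA gene, Gm23935, would have taken 30.1% of them.

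The test on counts was edgeR 4.0.16 (filterByExpr, TMM, glmQLFit and glmQLFTest; R 4.3.3), with the SE taken as log2 fold change over root F. TPM were tested with limma 3.58.1 (trend) on log2(TPM + 1), for genes reaching 1 TPM in 2 or more libraries, and such differences understate the change of low genes. Benjamini-Hochberg adjusted p over all genes tested had to lie under 0.05. Intervals at 95% use the moderated degrees of freedom and cover these libraries only. DESeq2 1.42.0, RLE factors, other filters and pseudocounts, TMM factors on TPM, recovered reads, leaving out marker genes of other cell types with antigen receptor segments, a replicate block and leaving out each library were alternatives. The main test of each comparison was checked on simulated data. There the limma test of Ly6d-high against Ly6d-low missed most 1.5-fold changes, while the edgeR test of overexpression against WT found most of them. Named are the 9 genes and, per pathway list and comparison, up to 4 genes past the threshold with the lowest p. For each of the 9, the 3 genes of the most similar pattern are also named, with genes at 5 CPM or more in both tables considered. Gene models, GC content and start sites are from GENCODE M21, and promoter sequences from RefSeq (GRCm38.p6).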

Additional observations from a re-analysis of the deposited data

How the results depend on the processing

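Members past the threshold were 0 in both comparisons with all libraries. In overexpression against WT the count became 1 higher without a filter, and 0 to 1 higher when a library was left out. In Ly6d-high against Ly6d-low, leaving out a library gave 0 to 6 higher and 0 to 1 lower. Leaving out a library gave 327 to 694 genes higher and 238 to 890 lower with overexpression, and 833 to 5599 higher and 98 to 1111 lower in Ly6d-high. Genes called with overexpression were 608 higher and 579 lower without a filter, and 238 higher without marker genes of other cell types. In Ly6d-high they were 485 higher and 46 lower without a filter, 671 higher with TMM factors, 591 lower with edgeR and 607 lower with DESeq2 on recovered reads. A replicate block, which pairs libraries by number only (deviations of Ly6d-high and Ly6d-low replicate 1 correlated at 0.272 across genes), gave 3581 genes higher and 598 lower, and 4 of the 9 genes higher: Trp53, Smad4, Myc and Cdkn1a. With the block and recovered reads together (chosen after seeing the data), edgeR called 1660 genes higher, 1372 lower and 0 of the 9. No paired analysis was possible for overexpression, because its columns carry no label number.

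Directions turned in these cases. Leaving out a library moved Trp53 from -0.12 to 0.061 in the overexpression comparison (0.021 without WT replicate 1), Smad4 from -0.043 to 0.13 and Ccng1 from -0.12 to 0.052. In Ly6d-high, Cdkn2b was at -0.18 with TMM factors, with edgeR on recovered reads and with the block on recovered reads, and at -0.20 with DESeq2. Bax was at 0.018 without marker genes and ran from -0.12 to 0.12 when a library was left out. The cause was not tested. With 2 libraries a group, small changes could not be told from the spread, as the intervals show.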
